A study of Danio rerio with 5 samples.

Results

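The embryonic globin genes hbae3 and hbbe3 and the heme synthesis genes alas2, urod, cpox and fech were followed in whole zebrafish larvae that had been exposed to protons as embryos. The members were every probe set whose only symbol in the platform's probe-to-gene table was one of these 6 genes. This gave 7 of the 15502 probe sets tested and 6 of 8793 named genes, since hbae3 had 2 probe sets. All larvae were of the wild-type AB strain, grown at 28.5 °C, and were collected at 7 days after fertilization, in pools of 20 animals taken from groups of 60. The control group was not irradiated. The other groups received 12 Gy or 15 Gy at 24 h, at 7.5 Gy/min from a proton beam of 8 MeV/u. There was 1 array for the control, 1 for 12 Gy and 3 for 15 Gy, each made from a pool of embryos of several clutches (Gy stands for gray, which measures absorbed dose). Whether the 15 Gy pools, called biological replicates in the labels, were irradiated separately is not stated, and the p-values therefore measure only how these pools varied, which may be technical.

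Hemoglobin, the oxygen carrier of red cells, is a tetramer of α-type and β-type globin chains, each holding a heme group. Zebrafish, like other vertebrates, use embryonic and larval globins first and adult globins later, and the genes lie in a major and a minor cluster in which α-type and β-type genes are mixed. Heme is built from glycine and succinyl-CoA by a chain of enzymes that begins and ends in the mitochondrion, and mutations of alas2 and urod in zebrafish cause anemia or porphyria. By gene order in RefSeq's annotation of GRCz12tu, hbae3 stood at an end of a cluster of 12 globin genes that also held the adult genes hbaa1 and hbba2. The gene hbbe3 stood in a cluster of 4 with hbbe2.

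Values are log2 RMA intensities (RMA is a method that corrects, normalizes and summarizes probe signals), and a difference of 1 is a 2-fold change. Array medians lay between 5.95 and 6.03. RNA quality was read from the actin and GAPDH controls of the array, as their 5′ signal over their 3′ signal. For actin, the control had 0.0171, the 12 Gy array 0.0354, and 15 Gy replicates 1, 2 and 3 had 0.129, 0.0350 and 0.108. The GAPDH ratio varied less, at 0.174, 0.177 and 0.242, 0.189 and 0.228 in the same order. In whole larvae, fewer or more red cells, less or more RNA per red cell, and less or more RNA from other cells cannot be told apart. Brightness differs between probes for technical reasons, so levels were compared between arrays and not between genes.

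Both embryonic globin genes and cpox were higher in every 15 Gy array than in the control array, with means 1.84-fold to 3.83-fold higher and single arrays 1.56-fold to 4.84-fold higher, and the mean of urod was 1.31-fold higher. The last enzyme gene of the pathway, fech, was 1.42-fold lower, and alas2 was dim in all arrays. Of the 7 member probe sets, 5 lay above the control in all 3 arrays at 15 Gy, a position held by 34% of all probe sets, and 2 lay below it, against 41.9% of all. None passed limma's test over all probe sets at 15 Gy against control, where 0% of probe sets did (0 of 15502, smallest adjusted p = 0.167). At an unadjusted p of 0.05, 3 member probe sets were higher (both of hbae3, and cpox), against 14.2% of all probe sets, and 1 was lower (fech), against 12% of all. All 4 also passed unadjusted without 15 Gy replicate 2, and of the 4 only cpox and the brighter hbae3 probe set did without replicate 1 or without replicate 3. Without replicate 1 hbbe3 passed unadjusted as well, though its difference from control fell from 0.92 to 0.64, as the remaining 15 Gy arrays lay close together. The shares above are from the fit to all arrays, and none was computed without a replicate.

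**Figure D1:**
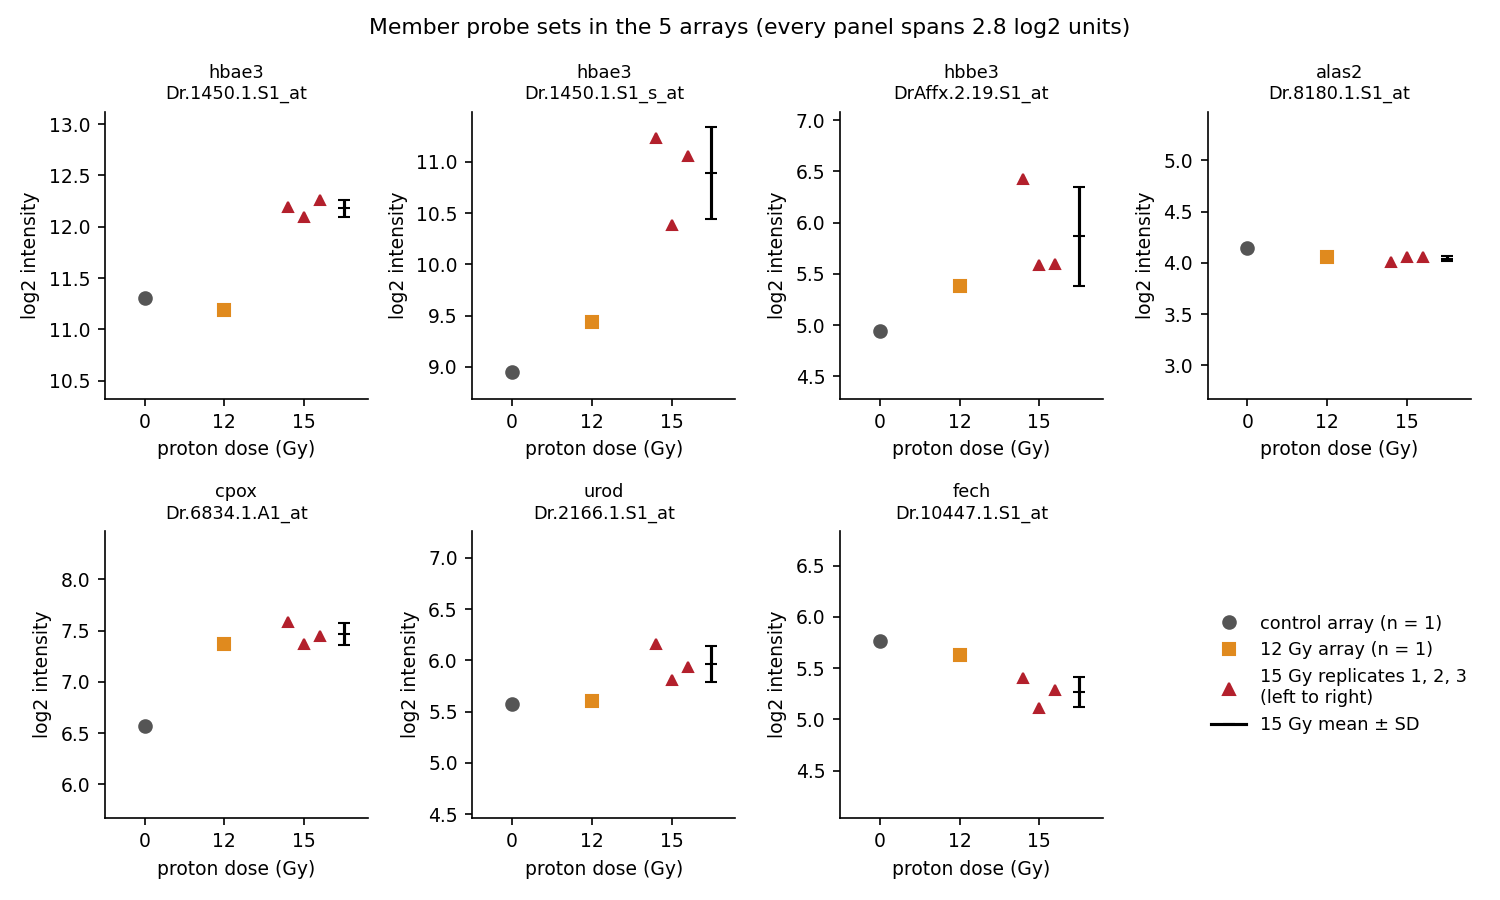
Log2 intensity (y axis) of the 7 member probe sets against proton dose in Gy (x axis, doses evenly spaced as categories), with a point per array and the mean ± SD of the 3 arrays at 15 Gy. The 15 Gy arrays sit above the control for hbae3, hbbe3, cpox and urod and below it for fech, and alas2 spans only 4.01 to 4.14.

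The gene hbae3 encodes an embryonic α-type globin chain. Its brighter probe set read 11.30 in the control and 11.19 at 12 Gy, and 12.19, 12.09 and 12.26 in replicates 1, 2 and 3 of the 15 Gy group, the order used from here on. The 3 arrays at 15 Gy thus lay close together and above both other arrays, which were near each other. The mean at 15 Gy was 12.18 ± 0.08 (SD, n = 3), a difference from control of 0.88 (SE 0.10, adjusted p = 0.167, unadjusted p = 0.00249), or 1.84-fold. The other probe set of the gene, whose identifier ends in a suffix that marks probes that may match several transcripts, read 8.95 in the control, 9.44 at 12 Gy and 11.23, 10.38 and 11.06 at 15 Gy. Here too no 15 Gy array overlapped the others, but the 15 Gy arrays were more spread and the difference was larger. It was 1.94 (SE 0.41, adjusted p = 0.167, unadjusted p = 0.0161), or 3.83-fold, and 98.5% of all probe sets had a lower difference. The sizes from the 2 probe sets of hbae3 therefore disagree, while the direction is shared. Because embryonic α globin genes have near-identical copies, neither value can be assigned to hbae3 alone with certainty.

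The gene hbbe3 encodes an embryonic β-type chain. Its probe set read 4.94 in the control, 5.38 at 12 Gy and 6.42, 5.58 and 5.59 at 15 Gy. All 15 Gy arrays were above the control and the 12 Gy array, but replicate 1 stood 0.83 above the next, and the other replicates were close to the 12 Gy array. The difference from control was 0.92 (SE 0.45, adjusted p = 0.266, unadjusted p = 0.124). Without replicate 1 the difference was smaller, 0.64, but the spread was smaller too and the unadjusted p was 0.00572 (adjusted p = 0.189). It was 1.07 without replicate 2 (unadjusted p = 0.171) and 1.06 without replicate 3 (unadjusted p = 0.209).

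Other globin genes with a symbol of their own were hbbe2, hbaa1 and hbba2, of 13 listed. The β-type embryonic gene hbbe2, of the same cluster as hbbe3, read 8.58 in the control, 9.41 at 12 Gy and 10.34, 9.64 and 9.94 at 15 Gy, a difference of 1.39 (SE 0.33, adjusted p = 0.169, unadjusted p = 0.021). The adult genes had lower values at 15 Gy than in the control. The adult α gene hbaa1 read 5.61 in the control, 5.38 at 12 Gy and 5.52, 5.38 and 5.25 at 15 Gy (difference −0.22, SE 0.14, unadjusted p = 0.206). The adult β gene hbba2, dim in all arrays, read 4.22 in the control, 3.92 at 12 Gy and 3.81, 3.90 and 3.74 at 15 Gy (difference −0.41, SE 0.10, adjusted p = 0.170, unadjusted p = 0.0239).

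A further 4 probe sets carry the symbols of several globin genes and are given without a gene name. Of the probe sets shared by embryonic α genes, the brighter one read 9.75 in the control, 10.15 at 12 Gy and 11.58, 10.87 and 11.37 at 15 Gy. The dimmer one read 3.84, 4.78 and 3.89, 4.09 and 4.33 in the same order, so that its highest value was at 12 Gy. The probe set shared by embryonic β genes read 10.78 in the control, 11.05 at 12 Gy and 11.93, 11.64 and 12.01 at 15 Gy, and was 1.08 higher at 15 Gy (SE 0.19, adjusted p = 0.167, unadjusted p = 0.00879). The probe set shared by adult β genes read 5.45, 5.50 and 5.46, 5.33 and 5.18 and overlapped the control. Counted by the class in their gene names, 7 of 7 embryonic or larval probe sets, the 3 of the members included, lay above the control in every 15 Gy array, and 0 of 3 adult probe sets did. Of the adult ones 2 lay below it, hbaa1 and the dim hbba2. The shares of all probe sets were 34% above and 41.9% below. Probe sets of near-identical genes may read the same transcripts, so the 7 are not separate observations. All 3 adult probe sets read 5.61 or lower, under the median of every array (5.95 to 6.03), where a change may be hard to see. The dimmer probe set shared by embryonic α genes also lay under every median. The 7 differences ran from 0.26 to 1.94 with a median of 1.08, and the 3 adult ones from −0.41 to −0.13. None of the 10 passed the adjusted test, and the difference between the classes was not tested.

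**Figure D2:**
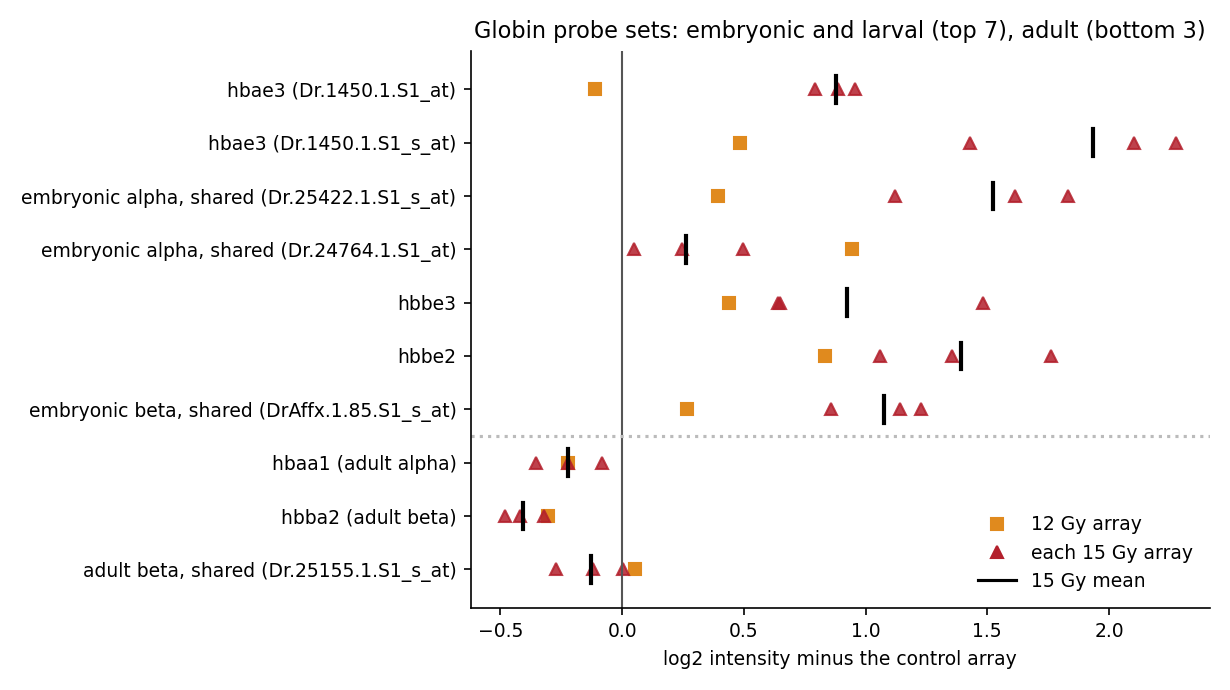
Log2 intensity of each globin probe set minus the control array (x axis) in the 12 Gy array (squares) and the 3 arrays at 15 Gy (triangles, bar at their mean). The 7 embryonic or larval probe sets lie to the right of 0 at 15 Gy, and hbaa1 and hbba2 lie to its left.

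Among the heme enzymes, the red cell form of the first enzyme, 5-aminolevulinate synthase, is encoded by alas2. Its probe set read 4.14 in the control, 4.06 at 12 Gy and 4.01, 4.06 and 4.06 at 15 Gy. In 3 of the arrays (12 Gy and 15 Gy replicates 2 and 3) the value was the same to 8 decimals. Equal values also occurred in a brighter probe set, that of slc48a1b (7.44 in the 12 Gy array and 15 Gy replicate 1). The alas2 values lay below the lower quartile of every array. The difference of −0.10 (SE 0.07, adjusted p = 0.397) is thus from a dim probe set on which a change of the transcript would be hard to see. The form of the enzyme that other tissues use, encoded by alas1, read 8.81 in the control, 9.29 at 12 Gy and 9.57, 8.93 and 9.19 at 15 Gy (difference 0.42, SE 0.30, unadjusted p = 0.246).

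The middle enzymes of the pathway act in the cytosol. The gene alad, for the enzyme that joins a pair of aminolevulinate molecules, read 5.64 in the control and 5.79 ± 0.09 at 15 Gy (SD, n = 3). The gene uros, for the enzyme that closes the uroporphyrinogen ring, read 6.06 in the control and 5.90 ± 0.04 at 15 Gy. Neither had an unadjusted p under 0.05 (0.244 and 0.119). The next gene, urod, encodes the decarboxylase that turns uroporphyrinogen into coproporphyrinogen. It read 5.57 in the control, 5.61 at 12 Gy and 6.16, 5.81 and 5.93 at 15 Gy. The control and 12 Gy arrays were nearly equal and all 15 Gy arrays were higher, with a difference from control of 0.39 (SE 0.18, adjusted p = 0.243, unadjusted p = 0.104).

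The gene cpox encodes the mitochondrial oxidase that makes protoporphyrinogen from coproporphyrinogen. It read 6.57 in the control, 7.37 at 12 Gy and 7.58, 7.37 and 7.45 at 15 Gy. All 4 irradiated arrays lay within 0.21 of each other and well above the control. The difference at 15 Gy was 0.90 (SE 0.12, adjusted p = 0.167, unadjusted p = 0.00376), or 1.87-fold. The gene fech encodes ferrochelatase, which inserts iron as the last step. It read 5.77 in the control, 5.63 at 12 Gy and 5.40, 5.11 and 5.28 at 15 Gy. The 15 Gy arrays were all lower than the other arrays, in the opposite direction to cpox and urod. The difference was −0.50 (SE 0.15, adjusted p = 0.181, unadjusted p = 0.0393), and the unadjusted p was 0.0515 without replicate 1, 0.139 without replicate 3 and 0.0547 after cyclic loess.

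**Figure D3:**
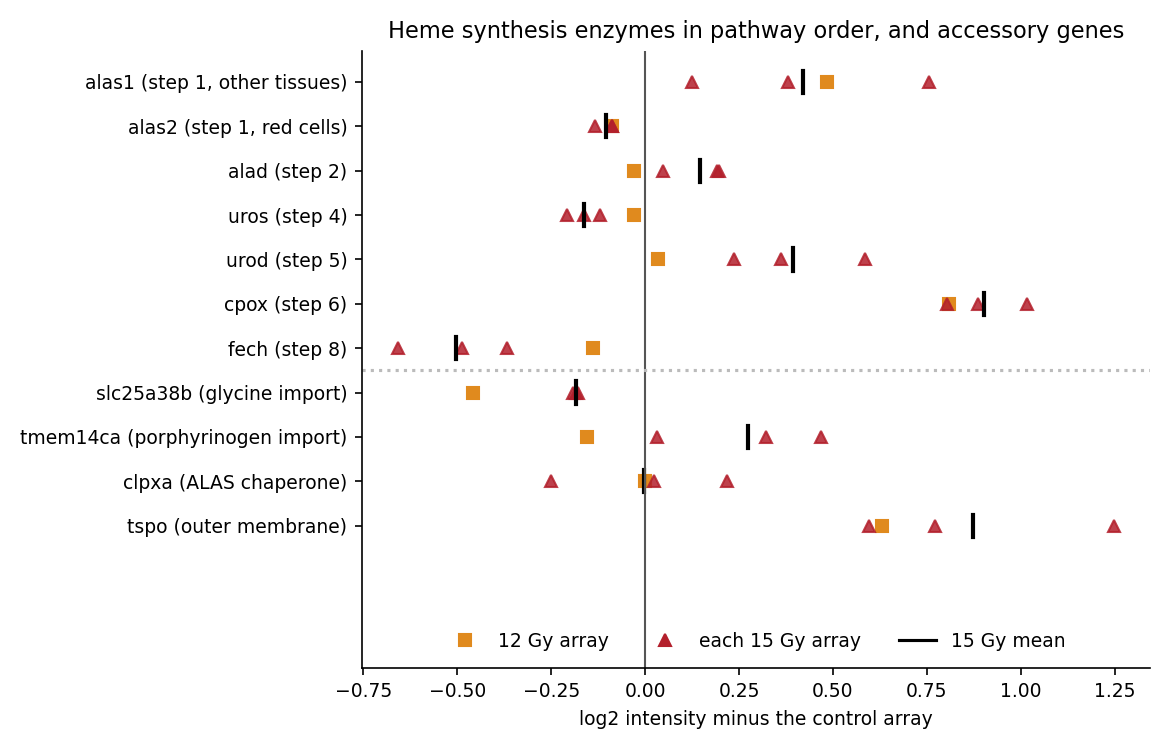
Log2 intensity minus the control array (x axis) for heme synthesis enzymes in the order of the pathway and, under the dotted line, accessory genes, in the 12 Gy array (squares) and the 3 arrays at 15 Gy (triangles, bar at their mean). The differences at 15 Gy run from −0.50 for fech to 0.90 for cpox among the enzymes.

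Of 16 other heme synthesis and accessory genes listed, 7 were measured. At 15 Gy 4 of them lay above the control in every array (tspo, alas1, tmem14ca and alad) and 2 below it (slc25a38b and uros). The shares of all named genes were 41.0% above and 36.5% below. Against 17.4% of all named genes higher and 10.4% lower, 0 of the 7 had an unadjusted p under 0.05 by their brightest probe sets. The largest difference was that of tspo, which encodes a porphyrin-binding protein of the outer mitochondrial membrane (0.87, SE 0.31, unadjusted p = 0.0647). The mitochondrial import genes tmem14ca (0.27) and slc25a38b (−0.18), and clpxa (0.00), whose product activates the first enzyme in other species, differed less. Dimmer probe sets of clpxa disagreed with this, at differences of 0.06, 0.38 and 0.52, the last with an unadjusted p of 0.00746. The median of the 7 was 0.15 (0.24 with each gene's probe sets averaged), that of the 6 members was 0.64, and that of all named genes was 0.01.

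Iron handling genes had the highest share above the control among the lists of red cell and heme biology, at 76.9%. The share of white blood cell and thrombocyte genes, a list outside that group, was 77.8%. The iron list genes cp and tfa are also in the liver list. Of 33 listed, 13 were measured, 10 lay above the control in every 15 Gy array and 2 below (fth1a and slc40a1), against 41.0% and 36.5% of all named genes, and their median was 0.49. At an unadjusted p of 0.05, 5 were higher (cp, fthl27, fthl28, fthl30 and aco1) and 1 lower (the iron exporter gene slc40a1, −0.31), against 17.4% and 10.4% of all named genes, and 0 passed adjusted. The copper-dependent ferroxidase gene cp, which the liver secretes, was 2.15 higher (SE 0.41). The ferritin-like genes fthl28 and fthl27 were 1.41 and 1.11 higher, and the iron importer gene slc11a2 was 0.75 higher. The ferritin heavy chain gene fth1a differed by −0.03. The probe sets of the near-identical copies fthl27, fthl28 and fthl30 may read the same transcripts. Their values are uncertain as to the gene, and they are not separate observations in the counts above. The gene slc25a37, which encodes the iron carrier of red cell mitochondria, was dim in all arrays. Probe sets of the listed gene steap4 differed in size, at 0.33 in the brightest (unadjusted p = 0.265) and 0.71 in a dimmer one (unadjusted p = 0.00157).

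Of 15 listed heme binding and breakdown genes, 6 were measured, 3 of which lay above the control in every 15 Gy array (blvrb, hpxb and hp) and 0 below it. The shares of all named genes were 41.0% above and 36.5% below. The largest difference in the list was that of blvrb, a biliverdin reductase gene (0.91, SE 0.40, unadjusted p = 0.1). The hemopexin gene hpxb (0.73) was dim in all arrays. The hemoglobin-binding haptoglobin gene hp was 0.42 higher and the heme transporter gene slc48a1b 0.07 higher. The list held 1 gene with an unadjusted p under 0.05, hpxb, against 17.4% of all named genes that were higher, and 0 passed adjusted. Globins used outside red cells were 3 of 5 measured. Neuroglobin (ngb), of nerve cells, differed by −2.14 (SE 0.90, unadjusted p = 0.0923), at 7.98 in the control and 4.77, 6.70 and 6.05 at 15 Gy. Without replicate 1 its difference was −1.61. Myoglobin (mb) differed by −0.53 (SE 0.08, unadjusted p = 0.00501) and the cytoglobin gene cygb1 by 0.58. Both were further from the control in the 12 Gy array, at −0.82 for mb and 1.38 for cygb1.

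Red cell regulators and structural genes lay on both sides of the control. Of 26 listed regulators 15 were measured, with a median of −0.11. Of these, 3 lay above (klf1, klf3 and jak2b) and 8 below the control in every 15 Gy array. The shares of all named genes were 41.0% above and 36.5% below. Among the 15 measured regulators 6 were below the lower quartile of every array, including gata1a, the main erythroid transcription factor gene (4.0001 in the control and 3.90, 3.93 and 3.92 at 15 Gy), and klf1. The largest differences were those of klf3 (1.18), a Krüppel-like factor gene, and of ldb1a (−1.05), tal1 (−0.89) and lmo2 (−0.79), whose products form a complex in blood cell precursors. Of these tal1 and lmo2 were dim, and a dimmer ldb1a probe set differed by −0.21. At an unadjusted p of 0.05 klf3 was higher and tal1 lower, against 17.4% and 10.4% of all named genes, and 0 regulators passed adjusted. Of 30 membrane, skeleton and enzyme genes 15 were measured, of which 6 lay above and 4 below the control (cat, dmtn, epb41b and cahz). The shares of all named genes were again 41.0% and 36.5%, and the median of the list was 0.12. The summed intensity of these 15 was 3862 in the control, 3454 at 12 Gy and 3952 to 4606 at 15 Gy. Such a sum is weighted toward the brightest probe sets and is not a measure of red cell content. The brightest in every array was that of prdx2 (log2 value 10.13 in the control). The red cell anion exchanger gene slc4a1a read 5.81 in the control and 5.75, 5.88 and 6.51 at 15 Gy, and the carbonic anhydrase gene cahz differed by −0.91 (7.43 in the control and 5.98, 6.59 and 7.00 at 15 Gy). The actin-binding gene dmtn differed by −1.503, tmod4 by 1.12 and the β-spectrin gene sptb by 0.76. None of slc4a1a, cahz, dmtn, tmod4 and sptb had an unadjusted p under 0.05, and tmod4 is best known from skeletal muscle. The members of the list that did were prdx2 (0.45), a peroxiredoxin gene, and znfl2a (0.29), against 17.4% of all named genes that were higher.

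Markers of other cell types also differed in the same comparison, and none passed the adjusted test. Of 12 listed liver genes 9 were measured, of which 6 lay above and 3 below the control in every 15 Gy array (fabp10a, rbp4 and ahsg1). The shares of all named genes were 41.0% and 36.5%, and the median of the 9 liver genes was 0.59. Their summed intensity was 4982 in the control, 4269 at 12 Gy and 7740 to 10613 at 15 Gy, with cp, also in the iron list (2.15), and the apolipoprotein genes apobb.1 (1.70) and apoa2 (1.40) as the largest log2 differences, while the liver fatty acid-binding protein gene fabp10a differed by −0.76 (−1.96, −0.22 and −0.10 in replicates 1, 2 and 3, and −0.16 on average without replicate 1). The gene apoa2 alone held 1838 of the sum in the control and 4379 to 5734 at 15 Gy, and without it the sum of the other 8 was 3144 in the control, 2600 at 12 Gy and 3361 to 4879 at 15 Gy. Of 12 listed white blood cell and thrombocyte genes 9 were measured, with a median of 0.59. Of these, 7 lay above the control, against 41.0% of all named genes, and 1 below it (itga2b), against 36.5%. The summed intensity was 386 in the control, 642 at 12 Gy and 633 to 822 at 15 Gy, and by the brightest probe set of each gene the largest differences were those of the thrombospondin gene thbs1b (1.51), the leukocyte actin-binding genes coro1a (1.29) and lcp1 (1.21), and the lysozyme gene lyz (1.02). Dimmer probe sets read otherwise for coro1a (0.64) and for the myeloperoxidase gene mpx, at 1.58 in 1 of them against 0.15 in its brightest. The order of the 15 Gy arrays was replicate 1, then 3, then 2 from the highest in 5 of 7 member probe sets, against 25.5% of all probe sets. The actin and GAPDH ratios had the same order. Among the 5 was fech, which was lower than the control, so that its replicate 1 lay nearest to the control. The brighter hbae3 probe set was highest in replicate 3. The part of RNA quality and of the makeup of cell types in the members' differences was not tested.

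**Figure D4:**
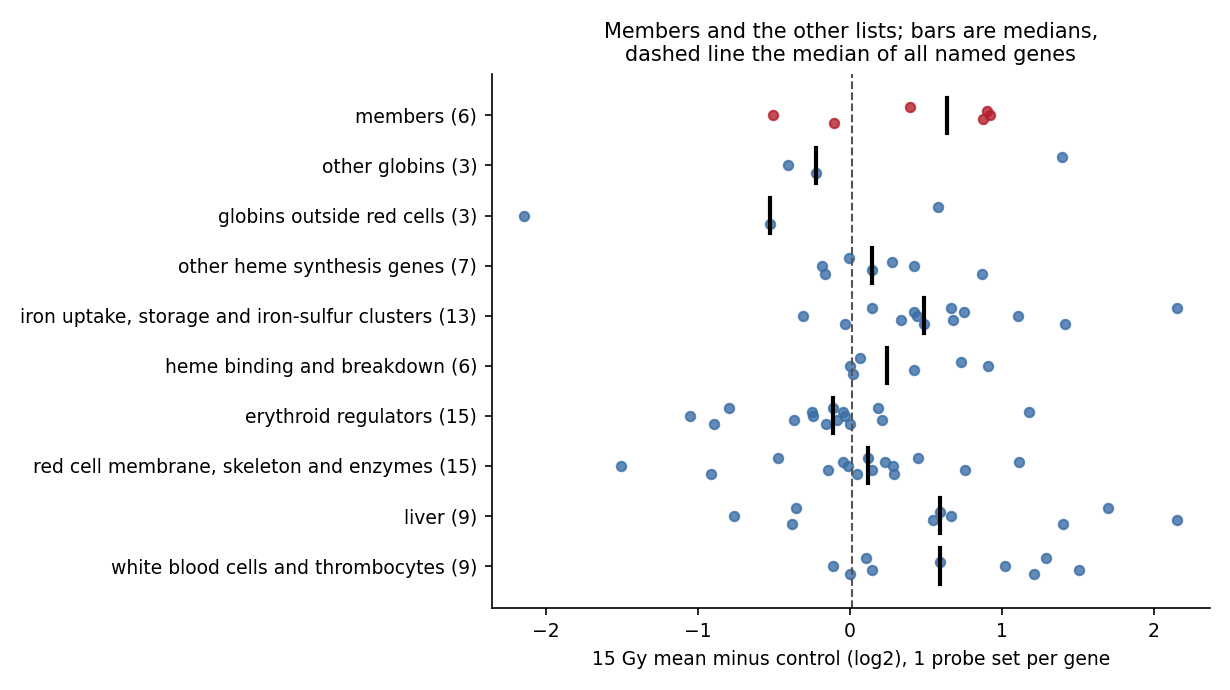
Difference between the 15 Gy mean and the control on the log2 scale (x axis) for each measured gene of the members and of 9 other lists, with the number measured in parentheses, a bar at each median and a dashed line at the median of all named genes (0.01). The members spread from −0.50 to 0.92, and the erythroid regulators centre on −0.11.

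The second comparison asked how larvae given 12 Gy differed from the control, with 1 array on each side and the spread borrowed from the 15 Gy arrays. No member reached a 2-fold difference, which 10.2% of all probe sets did. The gene cpox came nearest, at 1.75-fold higher (log2 difference 0.81, SE 0.15, adjusted p = 0.217, unadjusted p = 0.00965), and it was the only member with an unadjusted p under 0.05, against 9.46% of all probe sets that were higher. That p was 0.0542 without 15 Gy replicate 3, and without replicate 1 that of hbbe3 was also below 0.05 (0.0143). The other differences were 0.48 for the dimmer and −0.11 for the brighter hbae3 probe set, 0.44 for hbbe3, 0.03 for urod, −0.09 for alas2 and −0.14 for fech. With limma 0 probe sets passed over all, 0% of the total, and 2644 did at an unadjusted p of 0.05 (17.1%).

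The third comparison set 15 Gy against 12 Gy. All 3 arrays at 15 Gy lay above the 12 Gy array in 4 of 7 member probe sets, against 26.1% of all, and below it in 1, fech, against 26.3%. The brighter hbae3 probe set was 0.99 higher at 15 Gy (SE 0.10, adjusted p = 0.520, unadjusted p = 0.00173), and 99.2% of all probe sets had a lower difference. The dimmer one was 1.45 higher (SE 0.41, adjusted p = 0.540, unadjusted p = 0.0356). Both had an unadjusted p under 0.05, as did 4.29% of all probe sets in that direction, but the dimmer one did not without replicate 1 (0.119) or replicate 3 (0.148). The gene cpox differed by only 0.09 (SE 0.12) between the doses, urod by 0.36 (SE 0.18), hbbe3 by 0.48 (SE 0.45) and fech by −0.37 (SE 0.15). Without replicate 1 hbbe3 had an unadjusted p of 0.0412 and a difference of 0.21. No member passed adjusted, and 1 probe set of all did (0.00645%), that of copb2, though none without any 1 of the 15 Gy replicates. The comparisons share arrays, so their differences are not independent of each other.

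By the root mean square difference of centred log2 values over the 5 arrays, the nearest of 8792 other named genes to hbae3 were wu:fc38h03 (0.062), gfus.2 (0.097) and apoba (0.103), the last an apolipoprotein B gene. Those nearest to cpox were igf2b (0.014), ubald1b (0.016) and nolc1 (0.023). Those nearest to hbbe3 were ptgis, fbln1 and nck1b (0.058 to 0.081), to urod pitpnb, selenom and uqcrc2a (0.012 to 0.032), and to fech spegb, dab2ipb and zgc:153499 (0.062 to 0.088). Those nearest to alas2, whose profile was flat, were ft1, pth1r and ppp1cb (0.005 to 0.010). Among the members, the one nearest to hbae3, by its brighter probe set, was urod, at place 480 of 8792, and hbbe3 was at place 1557. Many other genes thus matched that hbae3 probe set more closely than hbbe3 did. With 5 arrays, 3 of them from 1 group, such likeness is a description only.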

How the data were processed

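Whole-larva RNA was measured on 5 Affymetrix zebrafish arrays, with 6 µg of RNA labelled per pool, per the labels' protocols. The deposited values are 1 linear intensity per probe set and array, with a minimum of 3.99 and a maximum of 24171. They were made with RMA, per the submitters' processing notes. Version and probe grouping were not given in the sources used here. Since RMA output is on a log2 scale, the values were probably converted back by the authors before they were deposited, which no label states. Scanner files were not used here, so detection could not be called, and "dim" means below the lower quartile in every array.

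Intensities were turned to log2 with no offset. Tests covered 15502 probe sets, after removal of 115 array controls. Of these, 10795 had 1 symbol. All 6 member symbols matched the RefSeq table through Entrez identifiers. Where 1 value per gene was needed, the probe set with the highest mean was used. List members were matched by their exact symbol.

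A limma model (3.58.1, R 4.3.3) was fitted to all 5 arrays, with group means as its terms. Tests were two-sided, p-values were adjusted by Benjamini-Hochberg across the whole table, and the threshold was 0.05. Its 2 residual degrees of freedom came from the 15 Gy arrays alone, and the prior added 1.20, so the lone control and 12 Gy arrays were assumed to vary as those did. The fit was tested on simulated data. The members, the 9 other lists and their genes were chosen with earlier results of these data known. Named genes were all measured globin and heme synthesis genes and the 4 with the largest absolute difference at 15 Gy in each other list. Others in the text, such as fth1a, tfa, steap4, slc25a37, gata1a, klf1, slc4a1a and copb2, and genes listed beside small counts, were named after their values were seen. Alternatives were other normalizations, a filter on dim probe sets, an offset of 16, an intensity trend, other groupings and leaving out each replicate. No batch or scan date was given in the sources used here. Figures used matplotlib 3.10.9.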

Additional observations from a re-analysis of the deposited data

Results flagged for a closer look

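The brighter probe set of hbae3, unlike the dimmer one, stood on opposite sides of the control at the 2 doses. It was −0.11 from the control in the 12 Gy array and 0.89, 0.79 and 0.96 above it in 15 Gy replicates 1, 2 and 3, a combination seen in 4.23% of all probe sets. The 12 Gy value was 0.01 after a further quantile normalization, −0.15 after median centring and −0.27 after cyclic loess (unadjusted p = 0.11), so neither its sign nor its size held across scalings. The 15 Gy against 12 Gy difference of 0.99 did not pass the adjusted test (adjusted p = 0.520). A difference in how the doses differ from the control was not tested apart from that comparison, as both use the same control array. The dimmer hbae3 probe set lay above the control at both doses, by 0.48 at 12 Gy and by a mean of 1.94 at 15 Gy. Of the 7 embryonic or larval globin probe sets, 6 lay above the control in the 12 Gy array.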

How the results depend on the processing

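At 15 Gy against control every member kept its direction under all alternatives that gave it a value. These were 10 for each but alas2 (9, since it is among the dimmest 30%). Several could not have reversed a sign. The filter and the intensity trend leave a difference unchanged. Leaving out a replicate or adding the offset could not turn it, as no member had 15 Gy arrays both above and below the control. The other normalizations could, and alas2 was then as little as −0.0012 (cyclic loess, unadjusted p = 0.992). Pooling with 12 Gy could not. Only the brighter hbae3 probe set had a 12 Gy value on the other side of the control, and at −0.11 it was too small to turn the mean. No member passed the adjusted test under any alternative. The share of all probe sets passing unadjusted was not computed for the alternatives, so the member counts given for them cannot be set against it. The hbae3 differences ran from 0.63 to 0.92 for the brighter and 1.57 to 2.19 for the dimmer probe set, and those of cpox from 0.80 to 0.95. Both low ends of hbae3 came from the grouping that pools the 12 Gy array with the 15 Gy arrays. With 15 Gy kept apart the lowest were 0.64 and 1.73, after cyclic loess. The median difference over all probe sets was −0.03, and no scaling moved it by over 0.1. With all 4 irradiated arrays as 1 group, 6 probe sets passed over all and 1 member (cpox) did unadjusted. Leaving out a 15 Gy replicate gave 2 to 4 members unadjusted at 15 Gy against control, 0 to 2 at 12 Gy against control and 1 to 2 at 15 Gy against 12 Gy, and in each case 0 probe sets passed adjusted in that last comparison. At 12 Gy against control, the count of probe sets passing adjusted was 4 after quantile normalization, 2 after cyclic loess, and 1 after median centring, with the offset of 16 or with an intensity trend. At 15 Gy against 12 Gy it was 0 without the dimmest 30%. Member probe sets below the control in every 15 Gy array became 1 after quantile normalization or cyclic loess, because alas2 then overlapped it. Reversed signs were all of near-zero differences: hbae3 at 12 Gy (0.0142 after quantile normalization), urod at 12 Gy (−0.007 after median centring) and alas2 between the doses (0.0437 after quantile normalization and 0.0401 after cyclic loess). Averaging a gene's probe sets moved the list median of other heme synthesis genes from 0.15 to 0.24, of the iron list from 0.49 to 0.52 and of the members from 0.64 to 0.65, and left the other 7 as they were. No paired analysis was possible because the groups share only replicate number 1. The single control array limits every comparison with it.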
